A study of Mus musculus with 5 samples.

Results

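The 10 genes described here encode inflammatory cytokines (*Il6*, *Il1b*, *Il1a*, *Tnf*, *Il10*, *Il18* and the chemokine *Cxcl2*), the inflammasome sensor *Nlrp3* and the NF-kB inhibitors *Tnfaip3* and *Nfkbia*. They were chosen by symbol from the 21755 protein-coding genes of the mouse GENCODE annotation, with earlier results of these data known, and the rule itself uses no measured value. All 10 were found once and all 10 had enough calls to be tested in every kind of region. CpG methylation was measured by whole-genome bisulfite sequencing (WGBS) of sorted blasts from murine acute myeloid leukemia (AML). Bisulfite turns unmethylated cytosine into uracil, so a cytosine still read as C was called methylated.

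All 5 libraries came from C57BL/6 leukemias with a *Cebpa*-/p30 genotype, in which 1 *Cebpa* allele is deleted and the remaining one yields p30 alone, a truncated form of the myeloid transcription factor CEBPA. *Tet2*, the gene of a dioxygenase that oxidises 5-methylcytosine, was intact in 2 libraries (*Tet2*+/+, numbers 23 and 24) and deleted in 3 (*Tet2*-/-, numbers 5, 7 and 8). Per the methods of the study, marrow of single donor mice was transplanted into lethally irradiated congenic recipients. The floxed alleles were then recombined through Mx1-Cre by injection of Poly(I)-Poly(C), a double-stranded RNA analogue that itself elicits interferon, and marrow was taken when the mice became moribund. All groups shared this treatment. Blasts were sorted from thawed marrow as live donor CD45.2+ cells without CD3, B220 and Ter119, so myeloid cells at any stage were retained.

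TNF, IL-1 and microbial ligands release the NF-kB dimers from IkBα, the product of *Nfkbia*, and the dimers then induce cytokine genes together with their own inhibitors IkBα and A20, the product of *Tnfaip3*. NLRP3 assembles the inflammasome, which matures IL-1β and IL-18. In myeloid cells many of these genes are kept poised, and their induction is rapid. Methylated CpGs at promoters and enhancers are in general a mark of inactive elements, whereas methylation of gene bodies is common in active genes. TET2 removes methylation mainly at enhancers and other CpG-poor sequence.

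Levels below are weighted ones, that is, the share of a library's calls in a region that were methylated. On the autosomes and X, libraries held 63111735 to 110752967 calls, or 2.96 to 5.19 per CpG dyad (a CpG with both strands added). Genome-wide, 67.3% and 62.3% of calls were methylated in *Tet2*+/+ 23 and 24, against 70.9%, 74.8% and 68.4% in *Tet2*-/- 5, 7 and 8, a difference of 6.52 points (exact permutation p = 0.2). With 2 libraries against 3, this two-sided test cannot give a p below 0.2. A stretch of 36 dyads in *Tet2* (chr3:133466411-133468352) had 128 and 151 calls in the *Tet2*+/+ libraries and 0 in each *Tet2*-/- library, as their labels state. Methylated calls on the mitochondrial genome stayed between 0.807% and 0.989%. Promoters of 12 preset markers of myeloid cells had a summed level of 13.01% to 16.4% in *Tet2*+/+ and 20.02% to 21.4% in *Tet2*-/-. Promoters of 7 T cell markers stood at 69.5% to 70.3% and 71.0% to 82.3%, those of 7 B cell markers at 38.1% to 40.7% and 41.5% to 48.8%, and those of 7 erythroid markers at 37.4% to 41.0% and 45.9% to 50.7%. The part of cell composition in the results below was not tested. In bulk DNA, a shift in the mixture of cells and a change within cells cannot be told apart.

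Promoter sequences are shown for 5 genes, so that the CpGs counted just before their starts can be read. Start sites of *Tnf* and *Il6* had few or no methylated calls in both genotypes, and the regions around *Il1a*, *Cxcl2* and *Nlrp3* held the called differences. Each is the 250 bases before the RefSeq start site (GRCm38.p6, which lies 28 bases past the GENCODE start in *Cxcl2* and 1 past it in *Nlrp3*), 5′ to 3′ along the gene, with the CpGs whose methylation was counted in capitals. They lie at chr17:35202008-35202257 (minus strand), chr5:30012864-30013113 (plus), chr2:129309973-129310222 (minus), chr5:90903649-90903898 (plus) and chr11:59541319-59541568 (plus).
Tnf: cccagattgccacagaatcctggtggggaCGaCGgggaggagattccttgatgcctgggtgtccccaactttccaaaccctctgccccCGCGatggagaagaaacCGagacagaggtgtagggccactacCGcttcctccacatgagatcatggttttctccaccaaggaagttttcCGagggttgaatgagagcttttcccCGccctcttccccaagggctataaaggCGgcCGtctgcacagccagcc
Il6: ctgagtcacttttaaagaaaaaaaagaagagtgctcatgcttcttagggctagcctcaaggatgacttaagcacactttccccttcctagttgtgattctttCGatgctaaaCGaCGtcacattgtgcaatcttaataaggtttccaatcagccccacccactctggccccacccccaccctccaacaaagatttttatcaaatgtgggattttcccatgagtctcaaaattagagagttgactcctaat
Il1a: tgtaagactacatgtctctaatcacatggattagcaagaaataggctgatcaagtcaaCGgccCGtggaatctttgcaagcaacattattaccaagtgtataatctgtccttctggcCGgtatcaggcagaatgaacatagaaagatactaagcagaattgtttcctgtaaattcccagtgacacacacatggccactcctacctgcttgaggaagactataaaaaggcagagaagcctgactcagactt
Cxcl2: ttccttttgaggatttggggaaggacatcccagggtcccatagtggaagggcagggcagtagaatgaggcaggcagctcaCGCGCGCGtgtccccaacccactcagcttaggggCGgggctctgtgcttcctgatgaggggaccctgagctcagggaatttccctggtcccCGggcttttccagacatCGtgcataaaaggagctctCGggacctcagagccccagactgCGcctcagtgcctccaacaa
Nlrp3: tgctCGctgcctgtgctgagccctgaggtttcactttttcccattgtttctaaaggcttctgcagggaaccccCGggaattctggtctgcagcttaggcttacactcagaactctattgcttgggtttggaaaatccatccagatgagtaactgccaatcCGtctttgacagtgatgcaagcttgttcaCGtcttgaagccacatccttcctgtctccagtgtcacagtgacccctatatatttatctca

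The windows differ in how many CpGs could be measured. *Tnf* has 10 CpGs there and *Cxcl2* 9, against 4 in *Nlrp3* and 3 each in *Il6* and *Il1a*, and the median over 32851 RefSeq promoter windows was 6.0. Calls of the 10 *Tnf* CpGs were methylated in 0.820% of 122 pooled *Tet2*+/+ calls and 0% of 250 pooled *Tet2*-/- calls, which allows a level of up to 1.2%. The 3 *Il6* CpGs had 0 methylated calls among 15 pooled *Tet2*+/+ calls, all from library 24, and among 20 pooled *Tet2*-/- calls. Counted as independent calls, these allow up to 20% and 15%. The 3 CpGs lie between 148 and 135 bases before the start, where 1 read can cover all of them. Limits that count such linked calls as independent are too narrow. At *Cxcl2*, *Tet2*+/+ 23 and 24 stood at 0% and 3.85%, and *Tet2*-/- 5, 7 and 8 at 7.5%, 13.3% and 14.3%. All 3 *Tet2*-/- libraries were thus above both *Tet2*+/+ libraries, with 21 to 80 calls each. The *Il1a* window stood at 15% and 20% in *Tet2*+/+ and 18.2%, 43.8% and 31.3% in *Tet2*-/-, so the groups overlapped, with 10 to 20 calls each. Its CpG 133 bases before the start was methylated in 5 of 12 pooled *Tet2*+/+ calls and 12 of 13 pooled *Tet2*-/- calls. The other two CpGs of that window had 0 methylated calls in *Tet2*+/+ and 1 each among 15 calls in *Tet2*-/-. In *Nlrp3* the level did not pass 4.55% in any library.

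The κB consensus, the sequence bound by NF-kB dimers, was searched on both strands of these windows. It was found in 5 of the 9 genes with a RefSeq window (*Il6*, *Nlrp3*, *Cxcl2*, *Tnfaip3* and *Nfkbia*), and in 3.90% of all 32851 windows. In *Il6* the match lies 44 to 35 bases before the start. In *Cxcl2* matches on both strands overlap between 97 and 87 bases before it, and in *Nfkbia* the match lies 29 to 20 bases before it. In *Tnfaip3* the RefSeq start lies 247 bases past the GENCODE start used for the promoter levels. Its window therefore lies almost wholly within the gene body. No κB match holds a whole CpG. The match of *Nlrp3* (186 to 177 bases before the start) and the first of *Tnfaip3* (125 to 116) end on the C of a counted CpG, and the other match of *Tnfaip3* (12 to 3) begins on the G of one. At the *Nlrp3* CpG 0 of 9 pooled *Tet2*+/+ calls and 0 of 26 pooled *Tet2*-/- calls were methylated. At the *Tnfaip3* CpGs the counts were 0 of 8 and 0 of 14 at the first match, and 0 of 11 and 0 of 14 at the other. The C/EBP motif TTNNGNAA, or TTNCNNAA on the other strand, was found in 7 of the 9 genes and in 36.8% of all windows. It lies 128 to 121 bases before the start of *Il6* and 91 to 84 bases before that of *Il1b*. A match to letters is not evidence of binding.

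To ask whether loss of TET2 changed methylation at the promoters of these genes, calls were summed over 1 kb on each side of the GENCODE start site. No promoter of the 10 passed edgeR's quasi-likelihood test after Benjamini-Hochberg adjustment over 19455 promoters, where 1.06% were called higher. Only *Il1a* had an unadjusted p under 0.05, and limma and edgeR's likelihood ratio test likewise called 0 of the 10, each with 1 under 0.05. The difference was positive at 9 of 10 promoters (76.7% of all promoters), with a median of 5.44 points against 2.22 points over all promoters. After the median difference over all promoters was subtracted, 8 of 10 were positive. At 6 of the 10 (*Il1a*, *Tnf*, *Il10*, *Il18*, *Nlrp3* and *Cxcl2*) all 3 *Tet2*-/- libraries were above both *Tet2*+/+ libraries, a pattern seen at 32.8% of all promoters. With equal weight for each CpG dyad, an alternative added after the data were seen, this held at 4 of 10 (not *Tnf* and *Il10*) and the median of the 10 was 2.70 points. This alternative kept only dyads with a call in all 5 libraries, and its values over all promoters were not computed.

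**Figure D1:**
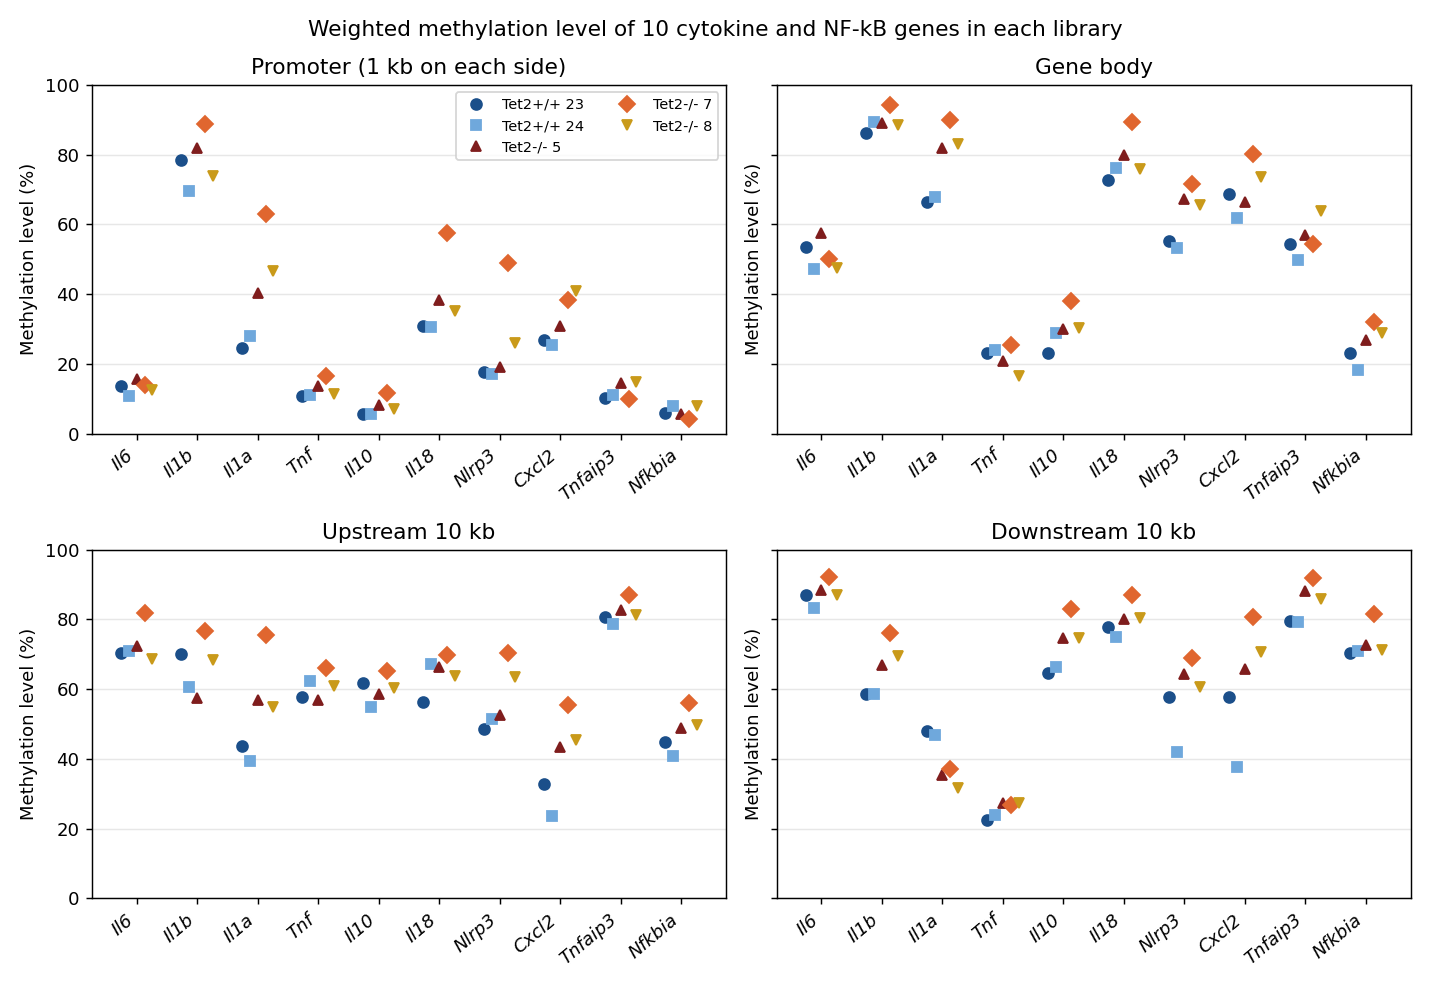
Weighted methylation level (%) of the 10 genes in their promoter, gene body, upstream 10 kb and downstream 10 kb. Each point is 1 library (blue, *Tet2*+/+ 23 and 24; red to yellow, *Tet2*-/- 5, 7 and 8). *Tet2*-/- library 7 is the highest point at the *Il1a*, *Il18* and *Nlrp3* promoters (63.1%, 57.7% and 48.9%), and the downstream flank of *Il1a* is the only one where the *Tet2*-/- libraries all lie below.

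Among the IL-1 family cytokines, *Il1a* (chr2:129299610-129309972, minus strand), which encodes an alarmin active as its precursor, had the largest promoter difference of the 10. Its promoter stood at 24.4% and 27.9% in *Tet2*+/+ 23 and 24, against 40.4%, 63.1% and 46.7% in *Tet2*-/- 5, 7 and 8. The groups did not overlap. From a mean of 26.1% ± 2.46 (SD, n = 2) in *Tet2*+/+ it went to 50.04% ± 11.7 (SD, n = 3). This difference of 23.9 points rested on 14 dyads with 57 to 84 calls per library (edgeR unadjusted p = 0.0137, adjusted p = 0.165). Of all tested promoters 97.3% had a smaller difference. Without library 7 the difference was 17.4 points. In the kilobase before the start the groups overlapped, at 5.88% and 16.2% in *Tet2*+/+ and 10.3%, 53.5% and 16.7% in *Tet2*-/-. In the kilobase after the start they did not, at 54.8% and 45.8% against 71.4%, 73.2% and 76.7%.

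*Il1b* (chr2:129364570-129371139, minus strand), which encodes the cytokine that caspase-1 matures, had the highest promoter level of the 10 in every library. It stood at 78.4% and 69.7% in *Tet2*+/+ and 81.9%, 88.9% and 74.0% in *Tet2*-/-, with overlapping groups and 50 to 90 calls on 15 dyads. An antisense transcript, *Il1bos*, overlaps this promoter, and a bisulfite level cannot be assigned to either transcript. *Il18* (chr9:50554827-50581840, plus strand), the other inflammasome product, had 30.7% and 30.4% in *Tet2*+/+ and 38.4%, 57.7% and 35.1% in *Tet2*-/-, a difference of 13.1 points (edgeR adjusted p = 0.431). The groups did not overlap, and library 7 stood apart from the other two *Tet2*-/- libraries. Without library 7 the difference was 6.17 points, and with equal weight per dyad it was 3.96 points. Its promoter window reaches into the divergent gene *Bco2*.

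*Tnf* (chr17:35199381-35202007, minus strand), *Il6* (chr5:30013114-30019981, plus strand) and *Il10* (chr1:131019845-131024974, plus strand) had low promoters in both genotypes. TNF and IL-6 are the archetypal acute-phase cytokines and IL-10 restrains them. At *Tnf* the level was 10.7% and 11.1% in *Tet2*+/+ and 13.6%, 16.6% and 11.4% in *Tet2*-/-. At *Il6* it was 13.6% and 10.6% against 15.6%, 14.0% and 12.6%, and the groups overlapped. At *Il10* it was 5.61% and 5.63% against 8.12%, 11.6% and 7.14%, and the groups of *Tnf* and *Il10* did not overlap. The 3 differences ranged from 1.94 to 3.34 points, near the promoter median. Over the omissions of 1 library they ran from 0.438 (without library 24) to 3.44 points (without 23) at *Il6*. At *Tnf* and *Il10* they were lowest without library 7, with 1.63 and 2.01 points. In promoter windows of 2000 bp on each side, the difference was -5.30 points at *Il6* and -1.24 points at *Tnf*.

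The 500 bp on each side of the starts were examined separately. Within 500 bp on each side of the *Tnf* start (22 dyads), the level was 0.980% in *Tet2*+/+ library 23 and 0.446% in *Tet2*-/- library 7, and 0% in the other 3 libraries. The counts of 0 allow a level of up to 2.14% in *Tet2*+/+ library 24 and up to 1.53% and 2.63% in *Tet2*-/- libraries 5 and 8. The unmethylated stretch of *Tnf* reached from 500 bp before the start to 1500 bp into the gene, where no 500 bp bin passed 2.70% in any library. At *Il6* the centre stood at 2.38% to 6.41% over all 5 libraries, and at *Il10* at 0% to 9.88%, with overlapping groups at both. These limits and the intervals of single levels cover counting error only, and they treat calls from the same read as independent.

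*Cxcl2* (chr5:90903871-90905938, plus strand) encodes a chemokine that recruits neutrophils through CXCR2. Its promoter level was 26.8% and 25.4% in *Tet2*+/+ and 31.0%, 38.3% and 41.0% in *Tet2*-/-, without overlap, a difference of 10.6 points (edgeR adjusted p = 0.405). The centre differed in the same way, at 19.0% and 16.8% against 28.3%, 30.8% and 34.2% (28 dyads, 79 to 180 calls). The kilobase before the start was nearly unmethylated in *Tet2*+/+ (2.16% and 2.80%) and stood at 11.1%, 8.33% and 11.1% in *Tet2*-/-. That kilobase holds 28 dyads and had 90 to 181 calls per library.

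*Nlrp3* (chr11:59541568-59566956, plus strand) had a promoter level of 17.5% and 17.0% in *Tet2*+/+ and 19.1%, 48.9% and 26.1% in *Tet2*-/-, a difference of 14.1 points (edgeR adjusted p = 0.368). Library 7 carried much of it, and without that library the difference was 5.31 points. The 500 bp bin that begins 1500 bp into the gene differed more, at 39.6% and 12.8% in *Tet2*+/+ and 67.5%, 88.5% and 58.1% in *Tet2*-/-, and there all 3 *Tet2*-/- libraries were higher. That bin was picked by its difference, and the *Tet2*+/+ libraries lay far apart in it (SD 19.0). The share of all such bins without overlap was not computed.

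The NF-kB inhibitors had the most CpGs around their starts. *Nfkbia* (chr12:55489410-55492647, minus strand) has 132 dyads in its promoter window, and its level was 5.83% and 7.87% in *Tet2*+/+ and 5.53%, 4.30% and 7.99% in *Tet2*-/-, the only promoter of the 10 with a lower *Tet2*-/- mean. That difference of -0.91 points turned to 1.78 points with equal weight per dyad and to 5.16 points in a window of 2000 bp on each side. Within 500 bp of the start no library passed 0.769%. Larger differences lay on both sides of this stretch, in bins picked by their difference and not tested. The bin from 1500 to 1000 bp before the start stood at 77.8% and 56.3% in *Tet2*+/+ and 93.3%, 97.2% and 95.2% in *Tet2*-/-, with 16 to 36 calls per library. The bin from 1500 to 2000 bp into the gene stood at 50% and 50.8% in *Tet2*+/+ and 74.7%, 82.6% and 97.1% in *Tet2*-/-. *Tnfaip3* (chr10:19000910-19015657, minus strand) had 10.1% and 10.98% in *Tet2*+/+ and 14.6%, 9.95% and 14.7% in *Tet2*-/- over 87 dyads, with overlapping groups. With equal weight per dyad its difference was -0.44 points instead of 2.55.

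**Figure D2:**
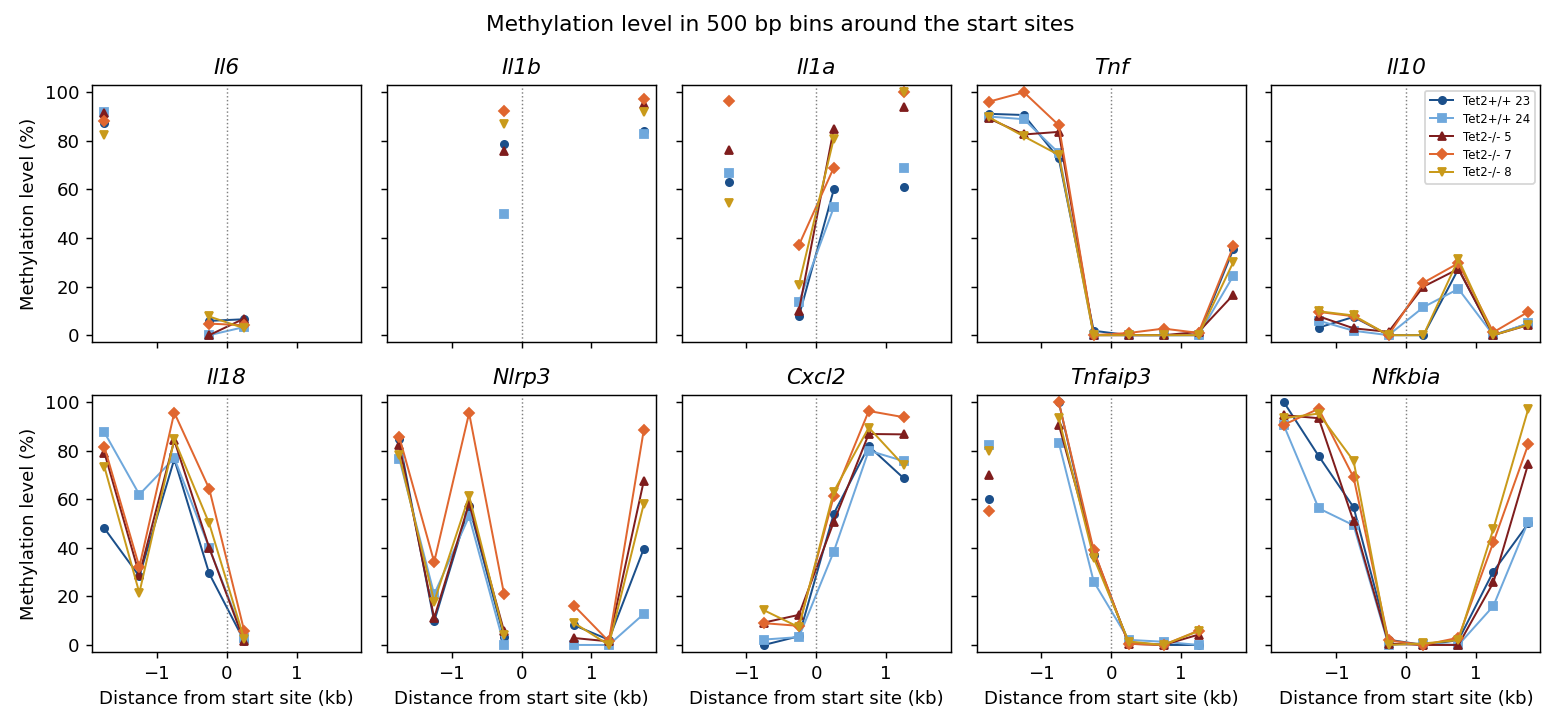
Methylation level (%) in 500 bp bins from 2 kb before to 2 kb after the start site of each gene, with 1 line per library and bins shown where every library had at least 10 calls. All libraries lie near 0 at the starts of *Tnf* and *Nfkbia*, and the *Nfkbia* libraries separate at 1500 to 2000 bp, where *Tet2*-/- stands at 74.7% to 97.1%.

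In *Tet2*+/+, the order of promoter levels ran from *Il10* (5.62%) and *Nfkbia* (6.85%) through *Tnfaip3* (10.6%), *Tnf* (10.9%), *Il6* (12.1%) and *Nlrp3* (17.3%) to *Cxcl2* (26.1%), *Il1a* (26.1%), *Il18* (30.6%) and *Il1b* (74.1%). The neighbouring pairs *Il10* and *Nfkbia*, *Tnfaip3* and *Tnf*, *Tnf* and *Il6*, and *Cxcl2* and *Il1a* differed by less than the larger SD of the pair. In *Tet2*-/- *Il1a* stood at 50.04%, above *Il18* at 43.7%, and both lay below *Il1b* at 81.6%. The SDs of *Il1a* and *Il18* in *Tet2*-/- (11.7 and 12.2) were larger than the distance between them.

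Gene bodies were examined next. In *Tet2*-/- blasts 2 of the 10 bodies (*Il1a* and *Nlrp3*) were called higher and none lower, where 15.5% of 20715 bodies were called higher. A further 2, *Nfkbia* and *Il18*, had an unadjusted p under 0.05 (adjusted p = 0.155 and 0.0711 in edgeR). The median difference of the 10 was 7.07 points against 4.95 over all bodies, and 9 of 10 were positive, against 87.9% of all bodies. After the median difference over all bodies was subtracted, 7 of 10 were positive. In 4 of 10 all *Tet2*-/- libraries were higher, against 46.0% of all bodies. With equal weight per dyad it was 7 of 10, and the share of all bodies was not computed with that weight.

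The body of *Il1a* stood at 66.5% and 67.8% in *Tet2*+/+ and 82.0%, 90.02% and 83.0% in *Tet2*-/-. It rose from 67.1% ± 0.931 (SD, n = 2) to 85.0% ± 4.38 (SD, n = 3), by 17.9 points over 80 dyads (edgeR adjusted p = 0.00376). The lowest *Tet2*-/- library was above the highest *Tet2*+/+ library. The call was lost when either *Tet2*+/+ library was left out (differences 15.4 to 19.4 points over all 5 omissions) and with limma.

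The body of *Nlrp3* stood at 55.1% and 53.2% in *Tet2*+/+ and 67.4%, 71.62% and 65.6% in *Tet2*-/-, a gain of 14.0 points (54.2% ± 1.35, n = 2, against 68.2% ± 3.09, n = 3; edgeR adjusted p = 0.00439). With 377 dyads and 1389 to 2424 calls per library it had the most calls of the 10 bodies. Its call was lost without *Tet2*+/+ library 24, with limma and when the first 1000 bp of the gene were left out. The difference was then 13.8 points (edgeR adjusted p = 0.0679).

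The bodies of *Il6* (50.4% against 51.7%), *Il1b* (87.8% against 90.6%) and *Tnf* (23.5% against 20.9%) differed by less than 3 points, and their groups overlapped. *Tnf* was the only body with a lower *Tet2*-/- mean, at 22.96% and 24.1% in *Tet2*+/+ and 20.8%, 25.4% and 16.6% in *Tet2*-/-. With equal weight per dyad its difference was 2.43 points in place of -2.57. When the first 1000 bp were left out, the difference was 8.73 points at *Il6* and -5.37 at *Tnf*, neither past the test (edgeR adjusted p = 0.266 and 0.585). Bodies of *Il10*, *Il18*, *Cxcl2*, *Tnfaip3* and *Nfkbia* had positive differences of 6.21 to 8.66 points that did not pass the adjusted test. Past its first 1000 bp the body of *Nfkbia* differed by 22.8 points and was called higher (edgeR adjusted p = 0.0368). *Il18* was called without library 8, with 10.2 points (edgeR adjusted p = 0.0142), and differed by 3.53 points without library 7 (edgeR adjusted p = 0.548). Single libraries also weighed on the others. The difference was 3.96 and 4.18 points at *Il10* without libraries 23 and 7, 4.61 and 4.63 points at *Cxcl2* without libraries 24 and 7, and 3.84 and 3.51 points at *Tnfaip3* without libraries 24 and 8.

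In the 10 kb before the start, *Il1a* and *Cxcl2* were called higher and none of the 10 lower, where 13.0% of 21311 upstream flanks were called higher. The difference was positive at all 10 (86.4% of all flanks), with a median of 4.45 points against 5.66 points over all flanks. After the median difference over all flanks was subtracted, 4 of 10 were positive. At 5 of 10 all *Tet2*-/- libraries were higher (44.7% of all flanks). The promoter's first kilobase belongs to this flank and its second to the gene body, so these regions share CpGs.

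Upstream of *Il1a* the level was 43.6% and 39.4% in *Tet2*+/+ and 56.8%, 75.6% and 54.8% in *Tet2*-/-. The gain of 20.9 points (41.5% ± 2.96, n = 2, against 62.4% ± 11.5, n = 3; edgeR adjusted p = 0.0109) was larger than in 98.9% of upstream flanks. Without library 7 it was 14.3 points. Upstream of *Cxcl2* the level was 32.8% and 23.6% in *Tet2*+/+ and 43.5%, 55.4% and 45.3% in *Tet2*-/-, a gain of 19.9 points (28.2% ± 6.49, n = 2, against 48.1% ± 6.43, n = 3; edgeR adjusted p = 0.00611). Both calls were lost without *Tet2*+/+ library 24 and with limma, and the call of *Il1a* also in a flank of 5000 bp.

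In the 10 kb after the gene, *Cxcl2* alone was called higher and none of the 10 lower, where 16.4% of 21328 downstream flanks were called higher. At 9 of 10 genes all *Tet2*-/- libraries were higher, a pattern of 52.7% of all flanks, and the median difference was 7.70 points against 6.44. After the median difference over all downstream flanks was subtracted, 5 of 10 differences were positive. The flank of *Cxcl2* stood at 57.7% and 37.7% in *Tet2*+/+ and 65.7%, 80.8% and 70.8% in *Tet2*-/-, a gain of 24.7 points (47.7% ± 14.2, n = 2, against 72.4% ± 7.66, n = 3; edgeR adjusted p = 0.0106). The *Tet2*+/+ libraries differed from each other by nearly as much, and the gain was 14.7 points without library 24, where the call was lost, as it was with limma. The flank was thinly covered, with 147 to 210 calls on 93 dyads, of which 35 had a call in all 5 libraries. Coverage was also uneven. In the 1 kb bins from 7000 to 12000 bp past the start, no library had more than 6 calls in a bin.

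*Il1a* was the exception. Its downstream flank stood at 47.9% and 46.9% in *Tet2*+/+ and 35.3%, 37.2% and 31.7% in *Tet2*-/-, a difference of -12.7 points (edgeR adjusted p = 0.135). Only 0.0656% of downstream flanks had a smaller value. It was called lower without library 7 (edgeR adjusted p = 0.045) and with limma after each library's median was subtracted (adjusted p = 0.046). This flank holds the start of *Ckap2l*, a gene of a mitotic spindle protein. A CpG-dense kilobase 12 to 13 kb from the *Il1a* start (52 of the 126 dyads) was unmethylated in every library, at 1.16% and 1.90% in *Tet2*+/+ and 0.395%, 1.09% and 0.408% in *Tet2*-/-. It took 37.7% and 39.4% of the calls of the flank in *Tet2*+/+ and 53.2%, 53.3% and 54.3% in *Tet2*-/-. Outside it the flank stood at 76.2% ± 0.0651 (SD, n = 2) in *Tet2*+/+ and at 74.1% ± 4.77 (SD, n = 3) in *Tet2*-/-, so the difference was -2.12 points. With equal weight per dyad the flank differed by 1.77 points. This kilobase was singled out after the negative value was seen, and its part in that value was not tested.

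**Figure D3:**
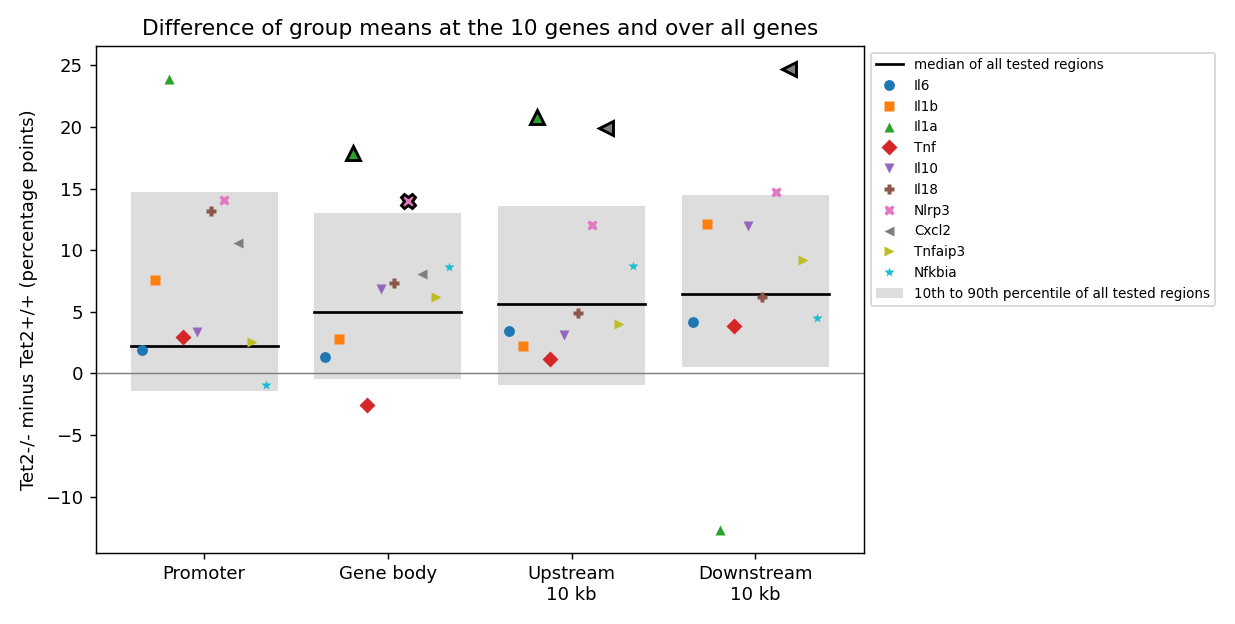
Difference of group means (*Tet2*-/- minus *Tet2*+/+, percentage points) for each gene and kind of region, beside the 10th to 90th percentile (grey bar) and median (black line) of all tested regions of that kind. Symbols outlined in black passed edgeR's test. These are *Il1a* and *Nlrp3* in gene bodies, *Il1a* and *Cxcl2* upstream and *Cxcl2* downstream, and the low point downstream is *Il1a* at -12.7.

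For a finer view, each locus was cut into 1 kb bins from 10 kb before the start to 10 kb past the end. Of 268 bins with at least 10 calls in every library, 108 (40.3%) had all *Tet2*-/- libraries above both *Tet2*+/+ libraries and 5 had all below. Of 1643430 such bins in the genome 28.7% had all above and 2.60% all below. The median difference was 7.77 points in the loci and 5.81 points in the genome. The loci were not alike. All 15 bins of *Cxcl2*, 42 of 45 of *Nlrp3* and 22 of 24 of *Il1a* had a positive difference, with medians of 22.7, 12.99 and 13.9 points. The medians of *Il6*, *Tnf*, *Il10* and *Tnfaip3* lay between 2.79 and 3.44 points, below that of the genome. Those of *Il18*, *Nfkbia* and *Il1b* were 5.64, 6.66 and 7.28 points, close to it.

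**Figure D4:**
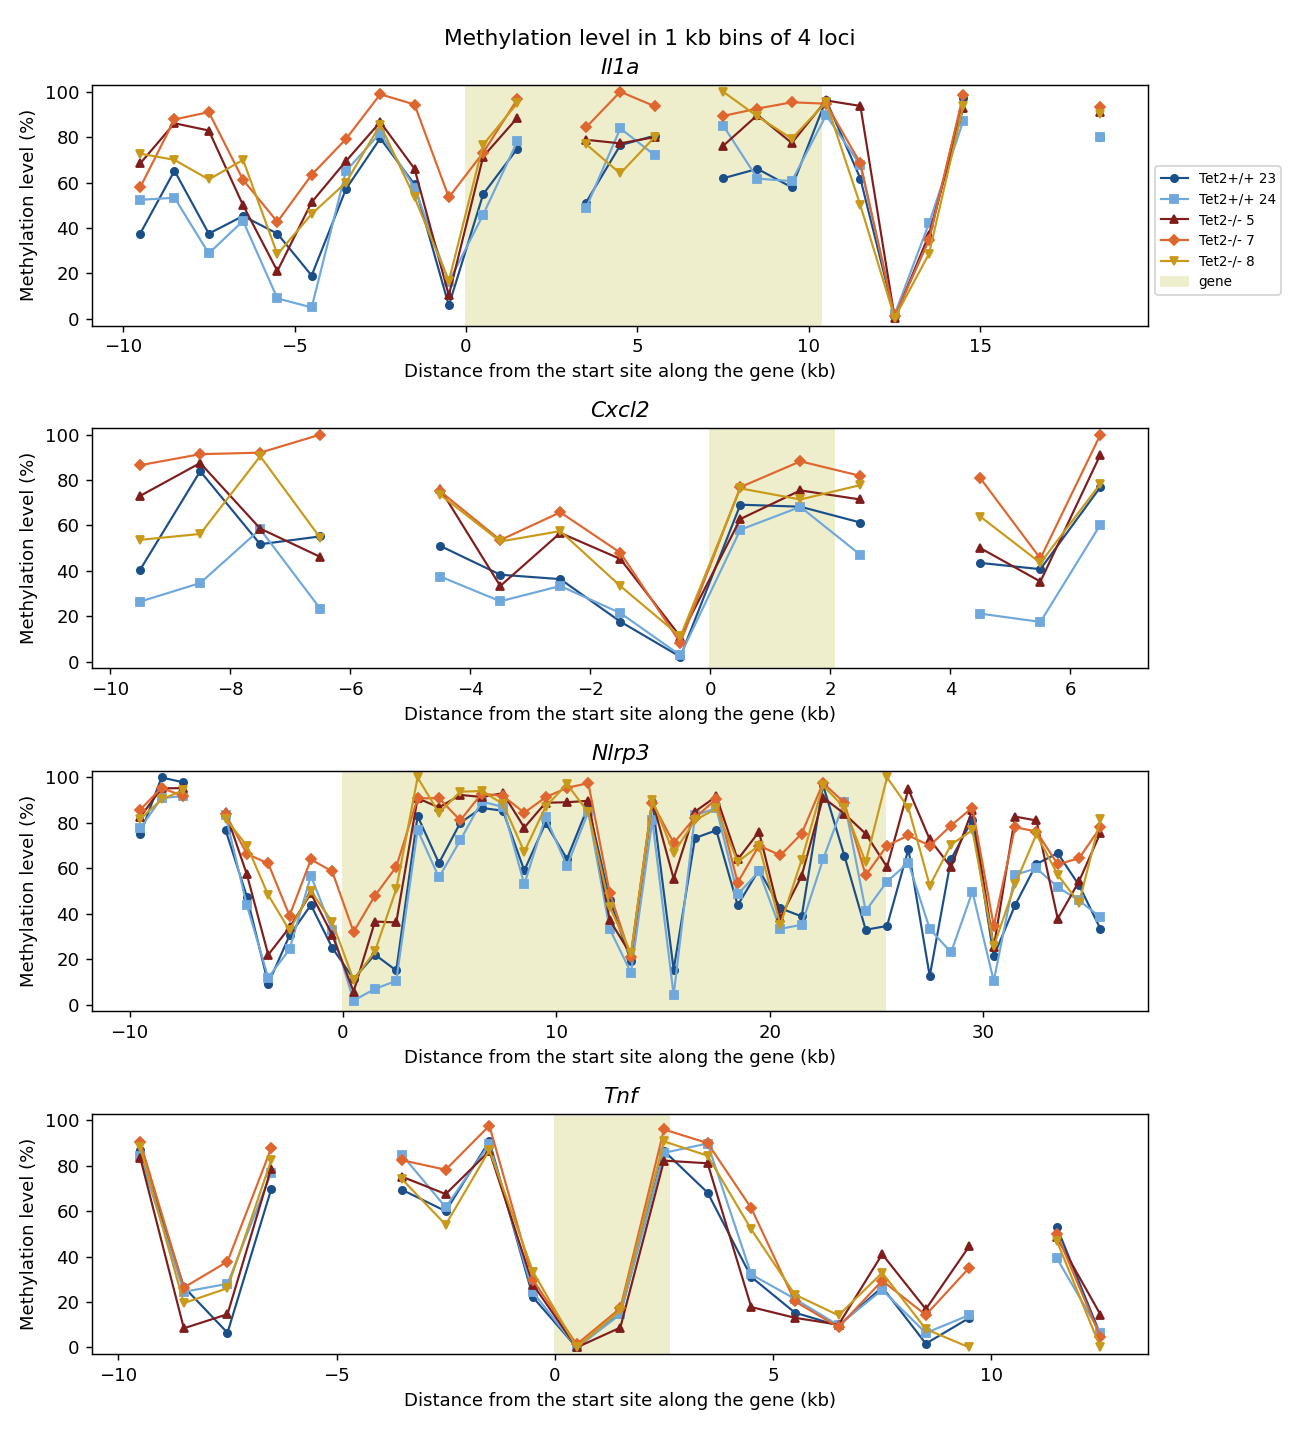
Methylation level (%) in 1 kb bins along the *Il1a*, *Cxcl2*, *Nlrp3* and *Tnf* loci, by distance (kb) from the start site along the gene, with 1 line per library and the gene shaded. Gaps are bins with fewer than 10 calls in a library. The lines of the 2 genotypes separate over much of the *Cxcl2* and *Nlrp3* loci and upstream of *Il1a*, whereas at *Tnf* they run together.

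The bin with the largest difference in each of the 3 loci with a called region is given as a description, without a test, because it was picked by that difference. At *Nlrp3* it lay 15 to 16 kb into the gene, in an intron, where the level was 15.4% and 4.11% in *Tet2*+/+ and 55.5%, 71.2% and 66.7% in *Tet2*-/-. This difference of 54.7 points was reached by 0.0858% of the bins of the genome. At *Il1a* it lay 7 to 8 kb before the start, between genes, at 37.5% and 28.8% in *Tet2*+/+ and 82.9%, 91.0% and 61.4% in *Tet2*-/-, a difference of 45.3 points that 0.346% of bins reached. At *Cxcl2* it lay 9 to 10 kb before the start, at 40.5% and 26.5% against 73.0%, 86.5% and 53.7%, a difference of 37.6 points that 1.05% of bins reached. These shares are of single bins, whereas each difference is the largest among 45 bins of *Nlrp3*, 24 of *Il1a* and 15 of *Cxcl2*.

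The 300 bases of each of these bins with the most CpGs are printed along the strand of the gene, from GRCm38, with CpGs in capitals. They are shown so that the sequence behind the largest differences can be read, and 0% to 7% of it is masked as repeat in the reference. The windows are chr11:59556957-59557256 (plus, 10 CpGs, in an intron of *Nlrp3*), chr2:129317377-129317676 (minus, 6 CpGs, outside annotated genes) and chr5:90894320-90894619 (plus, 8 CpGs, outside annotated genes).
Nlrp3 intron: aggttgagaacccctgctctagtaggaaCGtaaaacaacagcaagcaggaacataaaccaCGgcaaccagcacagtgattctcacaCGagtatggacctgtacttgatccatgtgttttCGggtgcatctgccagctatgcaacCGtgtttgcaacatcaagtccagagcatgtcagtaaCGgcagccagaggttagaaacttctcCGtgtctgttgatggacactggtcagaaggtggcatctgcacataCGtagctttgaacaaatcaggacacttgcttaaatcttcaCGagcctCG
Il1a upstream: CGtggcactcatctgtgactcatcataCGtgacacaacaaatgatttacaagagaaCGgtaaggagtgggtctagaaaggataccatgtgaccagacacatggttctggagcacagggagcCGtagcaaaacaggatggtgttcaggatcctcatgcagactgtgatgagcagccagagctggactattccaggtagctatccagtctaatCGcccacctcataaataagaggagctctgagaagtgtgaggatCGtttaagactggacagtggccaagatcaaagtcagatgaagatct
Cxcl2 upstream: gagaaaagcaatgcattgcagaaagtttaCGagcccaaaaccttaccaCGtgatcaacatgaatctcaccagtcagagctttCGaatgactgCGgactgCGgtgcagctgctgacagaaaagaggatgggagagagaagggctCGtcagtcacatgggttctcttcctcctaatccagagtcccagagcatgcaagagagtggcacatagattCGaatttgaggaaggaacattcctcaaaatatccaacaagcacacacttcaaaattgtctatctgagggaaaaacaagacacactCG

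Within these windows the libraries ordered as in their bins. In the *Nlrp3* window the level was 9.84% and 1.61% in *Tet2*+/+ (61 and 62 calls) and 50.7%, 64.7% and 62.5% in *Tet2*-/- (75, 34 and 32 calls). In the *Il1a* window it was 37.5% and 33.3% against 86.2%, 93.9% and 62.1%, with 29 to 49 calls per library. In the *Cxcl2* window it was 36.7% and 15.4% against 70.9%, 88.6% and 54.1%, with 26 to 55 calls. None of these windows had overlapping groups. The windows share calls with bins that were picked by their difference, so this order is not a separate result.

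Other bins are described here, picked by their differences and without a test. All *Tet2*-/- libraries were above both *Tet2*+/+ libraries in 28.7% of the bins of the genome. The kilobase 6 to 7 kb before *Nfkbia* stood at 6.98% and 6.45% in *Tet2*+/+ and 21.7%, 34.1% and 35.1% in *Tet2*-/-. At *Il10*, the kilobase 10 to 11 kb from the start, past the end of the gene, stood at 59.1% and 27.0% against 72.0%, 89.1% and 84.4%. At *Tnfaip3*, 21 to 22 kb from the start and also past the end of the gene, the level was 33.3% and 32.3% against 61.3%, 70.0% and 70.8%. In *Il18*, 10 to 11 kb into the gene, it was 54.7% and 56.3% against 77.1%, 82.4% and 88.2%. The largest gains of *Il6* and *Il1b* were 16.3 and 22.2 points. That of *Tnf* was 12.98 points, in a bin where the groups overlapped. At *Il6*, the kilobase 3 to 4 kb before the start differed by -16.3 points, also with overlapping groups. Of the 5 bins with all *Tet2*-/- libraries below, the largest losses were -7.77 points upstream of *Il6* and -6.41 points in *Il10*. Upstream of *Nlrp3*, a low kilobase 3 to 4 kb before the start stood at 9.17% and 11.8% in *Tet2*+/+ and 21.9%, 62.1% and 48.2% in *Tet2*-/-.

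Tiles of 5 kb on a fixed grid were tested over the genome. Of 73 tiles that touch the 10 loci 7 were called higher (9.59%) and 0 lower, where 3.22% of 488658 tiles were called higher. Of the 7, 3 lay at *Cxcl2*, 2 at *Nlrp3* and 1 in the body of *Il1a*. The remaining tile, centred 22.5 kb from the *Il1a* start, lies in *Ckap2l* and only touches the edge of the *Il1a* flank. The tile with the smallest adjusted p was centred 11.4 kb before *Cxcl2*, so most of it lies outside the *Cxcl2* flank, and it reaches into the neighbouring chemokine gene *Cxcl1*. It stood at 55.5% and 35.5% in *Tet2*+/+ and 67.9%, 88.7% and 63.2% in *Tet2*-/-, a difference of 27.7 points (edgeR adjusted p = 0.00453). The tile over the *Nlrp3* start (centre 0.933 kb into the gene) stood at 21.0% and 18.6% against 31.1%, 53.4% and 32.6% (edgeR adjusted p = 0.0437), and in none of the 7 did the groups overlap. None of the 7 passed with limma (adjusted p = 0.0739 to 0.175), and all 7 calls were lost without *Tet2*+/+ library 24. Without that library the tile near *Cxcl1* differed by 17.7 points, and without library 7 the tile over the *Nlrp3* start differed by 12.1 points and was not called. The tile near *Cxcl1* was still called in each of the other 4 omissions (largest adjusted p = 0.0316 in edgeR). Of the other 6 tiles, 5 were called in 1 of the 5 omissions and 1 in 2 of them.

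Other genes of the pathway were taken from 7 lists of 121 genes, of which 120 were found. Of 119 tested promoters 1 was called higher and 0 lower, where 1.06% of all promoters were called higher. The median difference was 1.39 points, against 2.22 points over all promoters. The called gene was *Cxcl10*, an interferon-induced chemokine, at 20.3% and 18.7% in *Tet2*+/+ and 49.6%, 44.2% and 43.7% in *Tet2*-/-, a gain of 26.3 points (19.5% ± 1.17, n = 2, against 45.8% ± 3.28, n = 3; edgeR adjusted p = 0.0453). The call was lost with limma, on leaving out any 1 of the 5 libraries (differences 24.4 to 27.4 points, edgeR adjusted p = 0.0835 to 0.469) and within 500 bp of the start, where the difference was 5.58 points. Of 120 gene bodies 14 were called higher and 0 lower, a share below the 15.5% of all bodies, with a median of 4.26 points.

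By role, 7 of the 23 ligand bodies were called higher. They are the interleukin genes *Il12b* and *Il33*, the growth factor gene *Csf3*, the interferon gene *Ifnb1* and the chemokine genes *Cxcl1*, *Cxcl3* and *Cxcl10*, of which *Cxcl1* and *Cxcl3* are neighbours of *Cxcl2* on chromosome 5. The ligands had a median of 9.21 points in bodies and 9.25 points in promoters. Among 24 receptors 3 bodies were called (*Il6st*, *Cd40* and *Tnfrsf11a*, median 4.50 points), and among 13 inflammasome genes 2 (*Txnip* and *P2rx7*, median 5.66 points). Of 14 other NF-kB targets 2 bodies were called (*Gadd45b* and *Mmp9*, median 3.17 points). Among the cell type markers, bodies were called higher in 5 of 12 for myeloid cells, 6 of 7 for T cells, 3 of 7 for B cells and 2 of 5 for erythroid cells, with medians of 6.03, 13.2, 11.8 and 8.43 points. Over all bodies 15.5% were called higher, with a median of 4.95 points. The plan named marker promoters only, and of these 1 of 12, 0 of 7, 0 of 7 and 1 of 5 were called higher. None of the bodies of 26 signalling genes, 8 NF-kB subunits and cofactors or 12 further inhibitors was called, with medians of 3.69, 1.17 and 2.54 points. The promoters of the NF-kB subunits and cofactors were low in both genotypes, with a median over genes of 6.02% in *Tet2*+/+ and 7.17% in *Tet2*-/-.

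**Figure D5:**
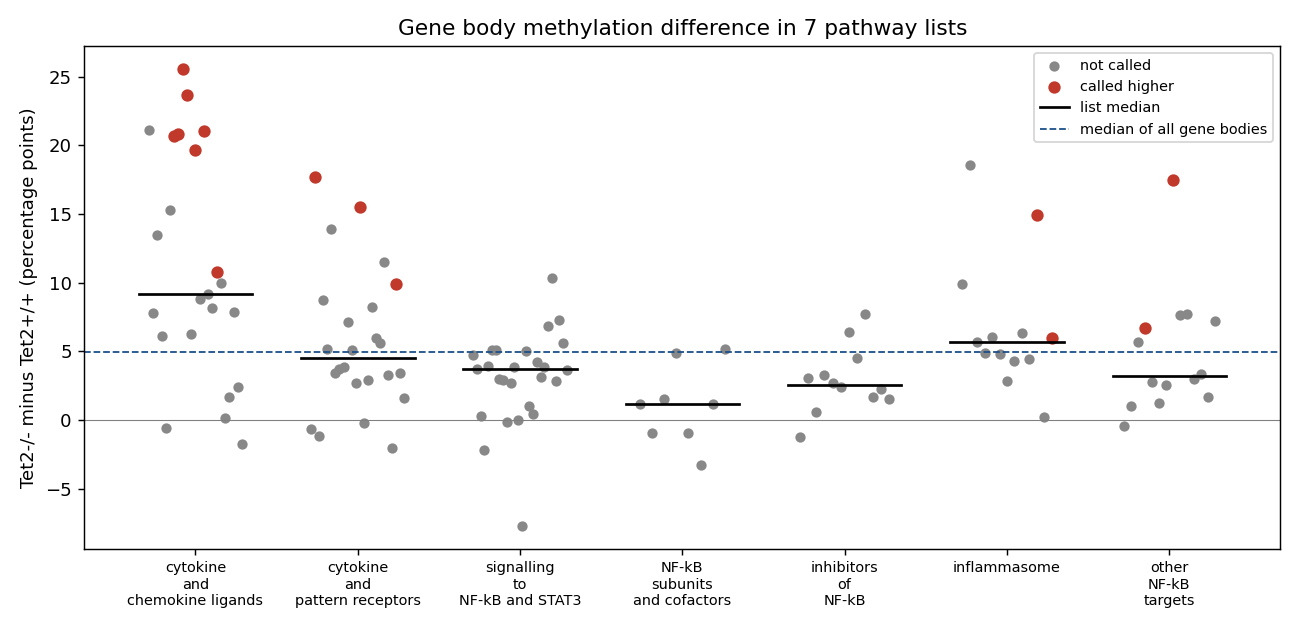
Difference of gene body methylation (*Tet2*-/- minus *Tet2*+/+, percentage points) for each gene of the 7 pathway lists. Red points passed edgeR's test, black lines are list medians, and the dashed line is the median of all gene bodies (4.95 points). The ligand list has the highest median (9.21) and 7 called genes, and the subunit, signalling and inhibitor lists have none.

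Summed over the 10 genes, promoters stood at 16.3% and 15.3% in *Tet2*+/+ and 18.6%, 21.3% and 20.3% in *Tet2*-/-. Gene bodies stood at 55.3% and 53.2% against 61.6%, 65.0% and 61.4%. In both, and in the upstream and downstream flanks, every *Tet2*-/- library was above both *Tet2*+/+ libraries, with differences of means of 4.26, 8.40, 8.50 and 4.97 points. The genome as a whole differed by 6.52 points in the same direction.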

How the data were processed

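WGBS of sorted blasts was analysed in 2 *Tet2*+/+ and 3 *Tet2*-/- libraries. The authors trimmed reads (Trim Galore 0.4.3), aligned them to GRCm38/mm10 with Bismark 0.19.1 in non-directional mode and deposited, per cytosine, counts of methylated and unmethylated calls after deduplication. These counts were summed over both strands of each CpG and over GENCODE vM21 regions (promoter, 1000 bp on each side of the start; gene body; 10 kb flanks) and 5 kb tiles. A region needed 20 or more calls per library to enter edgeR 4.0.16 (quasi-likelihood, methylated and unmethylated counts, Benjamini-Hochberg over all regions of a kind, threshold 0.05) in R 4.3.3. Tests were tried on simulated data first. limma 3.58.1, other windows, minimum counts and omission of each library were alternatives. Per the study, the libraries are from 2 *Tet2*+/+ and 3 *Tet2*-/- mice. Whether any of these recipients shared a marrow donor, and which libraries were sequenced together, is not given in the sources used here. p-values rest on the spread between these libraries, and those of edgeR also on a trend of that spread over all regions of a kind. The 10 genes and the lists were chosen with earlier results of these data known. Among genes of the pathway lists, those with a called promoter were given values. Depth was 63111735 to 110752967 calls per library.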

Additional observations from a re-analysis of the deposited data

How the results depend on the processing

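The count of called promoters (209, of which none among the 10 genes) was 77 with limma, 9 with limma after subtraction of each library's median, 915 with the likelihood ratio test, 105 and 532 in windows of 500 and 2000 bp, and 0 to 293 on leaving out 1 library. Called gene bodies (3221) numbered 117, 1 and, without the first 1000 bp, 2060, with a range of 88 to 3358 over the omissions. Called upstream flanks (2783) numbered 0, 2 and, at 5000 bp, 1335 (18 to 3519), downstream flanks (3503) 0 and 26 (166 to 2853), and tiles (15828) 2397 and 175 (276 to 19989). After centring, 8 of the 9 promoters, 0 of the 2 upstream flanks, 14 of the 26 downstream flanks and 113 of the 175 tiles were higher in *Tet2*-/-, against 206, 2776, 3498 and 15722 before it. Among the omissions, the lowest count came without *Tet2*+/+ library 24, which leaves 1 *Tet2*+/+ library that is assumed to vary like the others.

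Among the 10 genes, called bodies (2) and upstream flanks (2) numbered 0 with limma, with and without centring, and 0 to 3 over the omissions. At 5000 bp, 1 upstream and 2 downstream flanks were called, and downstream flanks (1) numbered 0 with limma, 1 after centring (*Il1a*, lower) and 0 to 2 over the omissions.

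Subtraction of the median difference over all regions of the same kind turned the difference of *Il6* (promoter -0.28, body -3.67, upstream -2.19, downstream -2.30), *Il1b* (body -2.13, upstream -3.42), *Tnf* (upstream -4.47, downstream -2.58), *Il10* (upstream -2.57), *Il18* (upstream -0.79, downstream -0.25), *Tnfaip3* (upstream -1.61) and *Nfkbia* (downstream -1.94). Promoter windows of 500 bp turned *Tnf* (-0.34), and those of 2000 bp *Il6* (-5.30), *Tnf* (-1.24) and *Nfkbia* (5.16). Over the omissions the *Nfkbia* promoter ran from -1.93 to 0.11, the *Il6* body from -1.95 to 4.53, and upstream flanks of *Il6* from -0.30 to 6.27, *Il1b* from -2.64 to 7.25, *Tnf* from -1.23 to 3.41, *Il10* from -0.34 to 6.51 and *Il18* from -0.52 to 10.2. Equal weight per dyad turned the *Tnfaip3* (-0.44) and *Nfkbia* (1.78) promoters, the *Tnf* body (2.43) and the *Il1a* downstream flank (1.77). The cause was not tested. Depth limits single promoters, which had 50 to 628 calls per library. No paired analysis was possible because the groups share no replicate numbers.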
